A study of Homo sapiens with 6 samples.

Results

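Of the nuclear receptors of human cells, 44 genes that include the vitamin D receptor VDR and its RXR partners were followed in heat-treated residual hepatocellular carcinoma (HCC) cells with and without periostin (POSTN). The members were chosen by gene symbol, and each gene was read by its brightest probe set among those annotated to exactly 1 symbol. This gave 38 genes with 125 probe sets, of 19775 genes and 54613 probe sets tested over the whole array. The other 6 genes (NR1D1, NR1H2, NR1H4, NR1I2, NR2F2 and NR0B1) have no probe set of 1 symbol in the table and were not analysed here. The cells were MHCC97H, an established human HCC line, kept in culture after heating at 47 °C, a sublethal temperature. One group received 100 ng/mL recombinant POSTN, a secreted matrix protein that binds integrins, for 24 h (3 arrays). The control group had the same heat treatment and culture with 0 ng/mL POSTN (3 arrays). All 6 arrays therefore come from heated cells of 1 line in culture, with no unheated cells and no stellate cells.

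Nuclear receptors are transcription factors that bind DNA at short half-sites, and many of them are switched by small fat-soluble ligands such as vitamin D, retinoic acid, oxysterols, fatty acids and steroid hormones. VDR and the receptors for retinoids, thyroid hormone, fatty acids, oxysterols and bile acids act as heterodimers with a retinoid X receptor (RXR), while steroid receptors act mainly as homodimers. In the liver, receptors of this family set bile acid, lipid, glucose and drug metabolism, and in stellate cells VDR is known to restrain the fibrotic program.

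The deposited values are log2 signals of the MAS 5.0 algorithm, and every signal given here is on that log2 scale. The median over each array was 5.86 to 5.95 with POSTN and 5.80 to 5.87 in control cells, and the arrays correlated with each other at r = 0.969 to 0.985 over the probe sets above background. The table has no detection calls, so a background level of 5.98 was set as the 95th percentile of the mean signals of 107 probe sets of olfactory receptor genes. Of the hepatocyte and hepatoma markers, 7 of 10 had a mean above that level, with keratin genes KRT8 and KRT18 high on every array, while SERPINA1, APOA1 and AHSG had a mean below it. Of the markers of other cells, 3 of 10 stellate cell genes (COL1A1, DCN and LUM), 2 of 4 endothelial genes and 1 of 4 leukocyte genes lay above it. By limma, 0 markers of any list passed an adjusted p under 0.05 between POSTN and control. Among all markers only TTR, lower with POSTN, had groups that did not overlap (log2 fold change -0.81, standard error 0.37), beside 7.13% of all genes. LUM, DCN and COL1A1 had means of 11.17, 9.26 and 8.22, and the endothelial genes PECAM1 and KDR had 10.10 and 6.83. Each of these was above the background level on all 6 arrays. The leukocyte gene CD3E had a mean of 6.19 and was above the level on 5 arrays. The leukocyte gene PTPRC, the endothelial gene CDH5 and the stellate cell genes PDGFRB and LRAT were within the background range on all 6 arrays. It is not stated whether the 3 samples of a group are separate cultures, and the p-values therefore cover only the spread among these 6 arrays, which may be technical. A signal is read from the RNA of a whole culture, so fewer cells with a transcript and less RNA per cell cannot be told apart.

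By mean signal, 21 of the 38 nuclear receptor genes lay above the background level (6.32 to 11.26) and 17 lay at or below it (1.38 to 5.95). Over the whole array, 11550 of 19775 genes lay above it. On single arrays, 20 were above it on all 6, 8 on some and 10 on none. The genes above background were the RXR genes RXRA and RXRB, 10 of 11 measured RXR partners (VDR, RARA, RARB, RARG, THRA, THRB, PPARA, PPARD, PPARG and NR1H3), 2 of 3 clock receptors (NR1D2 and RORA), 6 of 16 orphan and estrogen-related receptors (NR2C1, NR2C2, NR2F1, NR2F6, ESRRA and NR4A2) and 1 of 5 steroid receptors, the glucocorticoid receptor NR3C1. NR4A2 was the only gene of these 21 that was not above background on every array, with 4 of 6. The 17 dim genes included the steroid receptors ESR1, ESR2, PGR and NR3C2, the xenobiotic receptor NR1I3 (CAR), RXRG, NR4A1 and NR4A3, and the bile acid regulator NR0B2 (SHP).

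**Figure D1:**
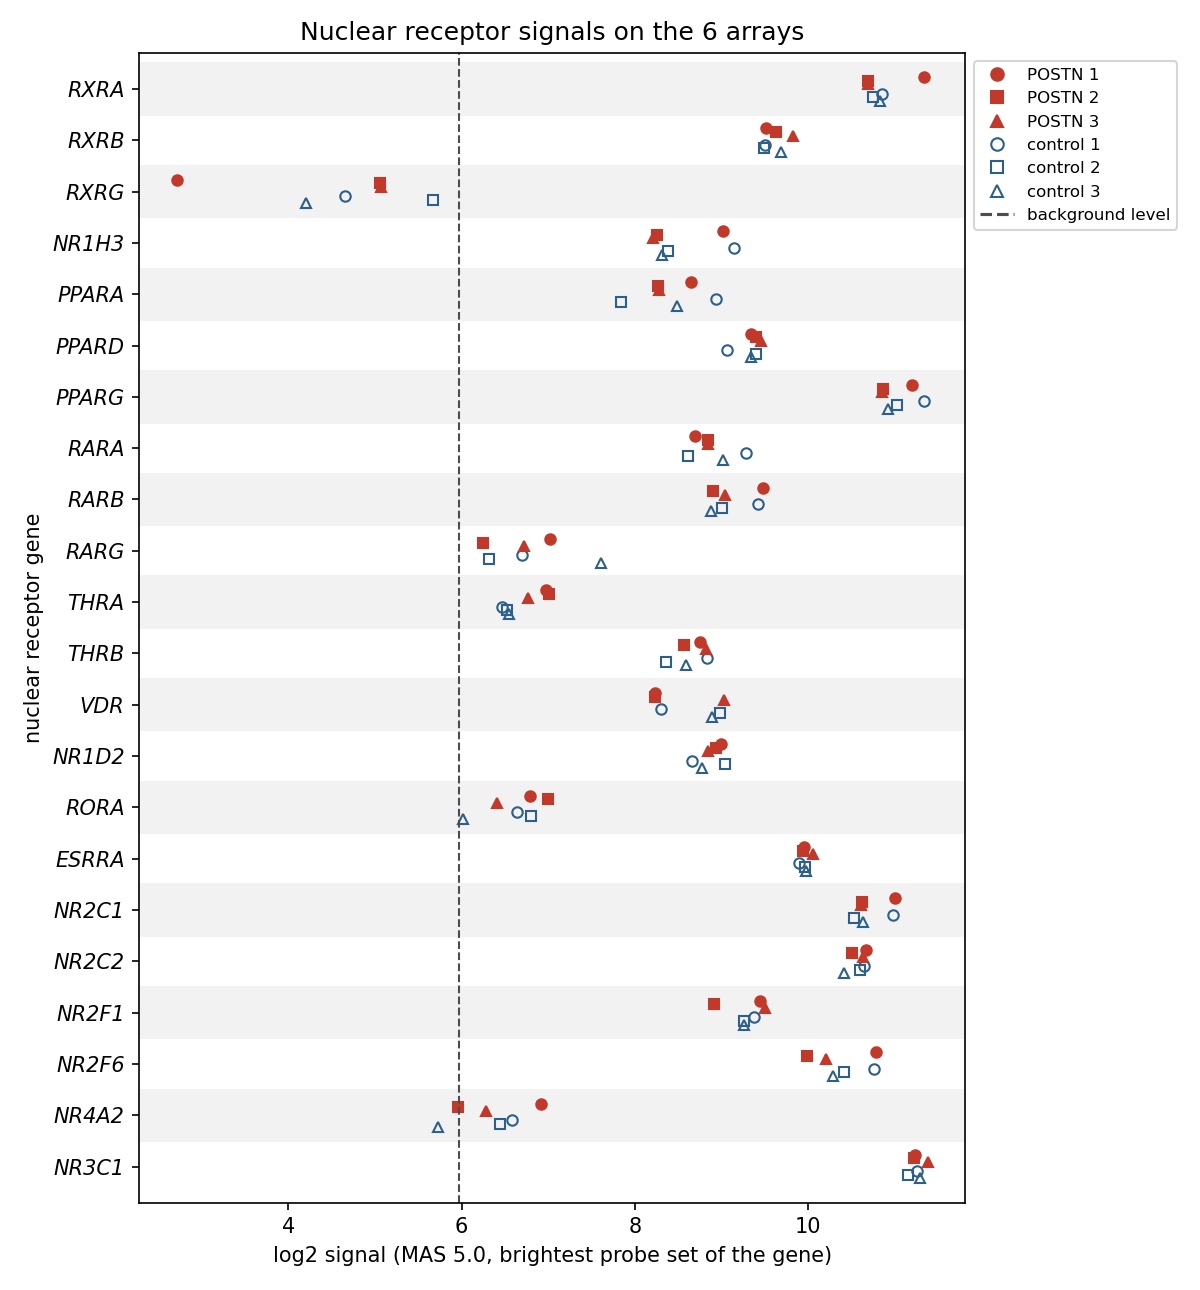
Log2 signal (x axis) of the brightest probe set of the 21 nuclear receptor genes above background and of RXRG (y axis, grouped by role), with 1 point per array: filled red for POSTN 1, 2 and 3 and open blue for control 1, 2 and 3. The POSTN and control points of a gene overlap except for THRA, and the dashed line marks background (5.98).

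The first comparison asked whether POSTN changed the mRNA of these receptors in residual HCC cells. No nuclear receptor passed the test: by limma with Benjamini-Hochberg adjustment over all probe sets, 0 of 38 genes passed an adjusted p under 0.05, beside 0% of all genes, and the lowest adjusted p of the array was 0.9999. At an unadjusted p under 0.05 the count was also 0 of 38, beside 2.48% of all genes. The study's methods ask for an unadjusted p under 0.05 together with a change above 2-fold or below 0.5-fold, and 0 of 38 genes met both with limma's p, beside 2.07% of all genes, or with the methods' t-test. For 17 of the 21 genes above background, the 95% confidence interval of the POSTN effect lay within a 2-fold change either way, and for 12 within 1.5-fold. The same held for 0 of the 17 dim genes, so that for these a 2-fold change either way was not excluded. The median log2 fold change was 0.039 over the 38 genes and 0.00015 over all genes. Among the members above background it was 0.040, with 13 higher and 8 lower in sign.

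**Figure D2:**
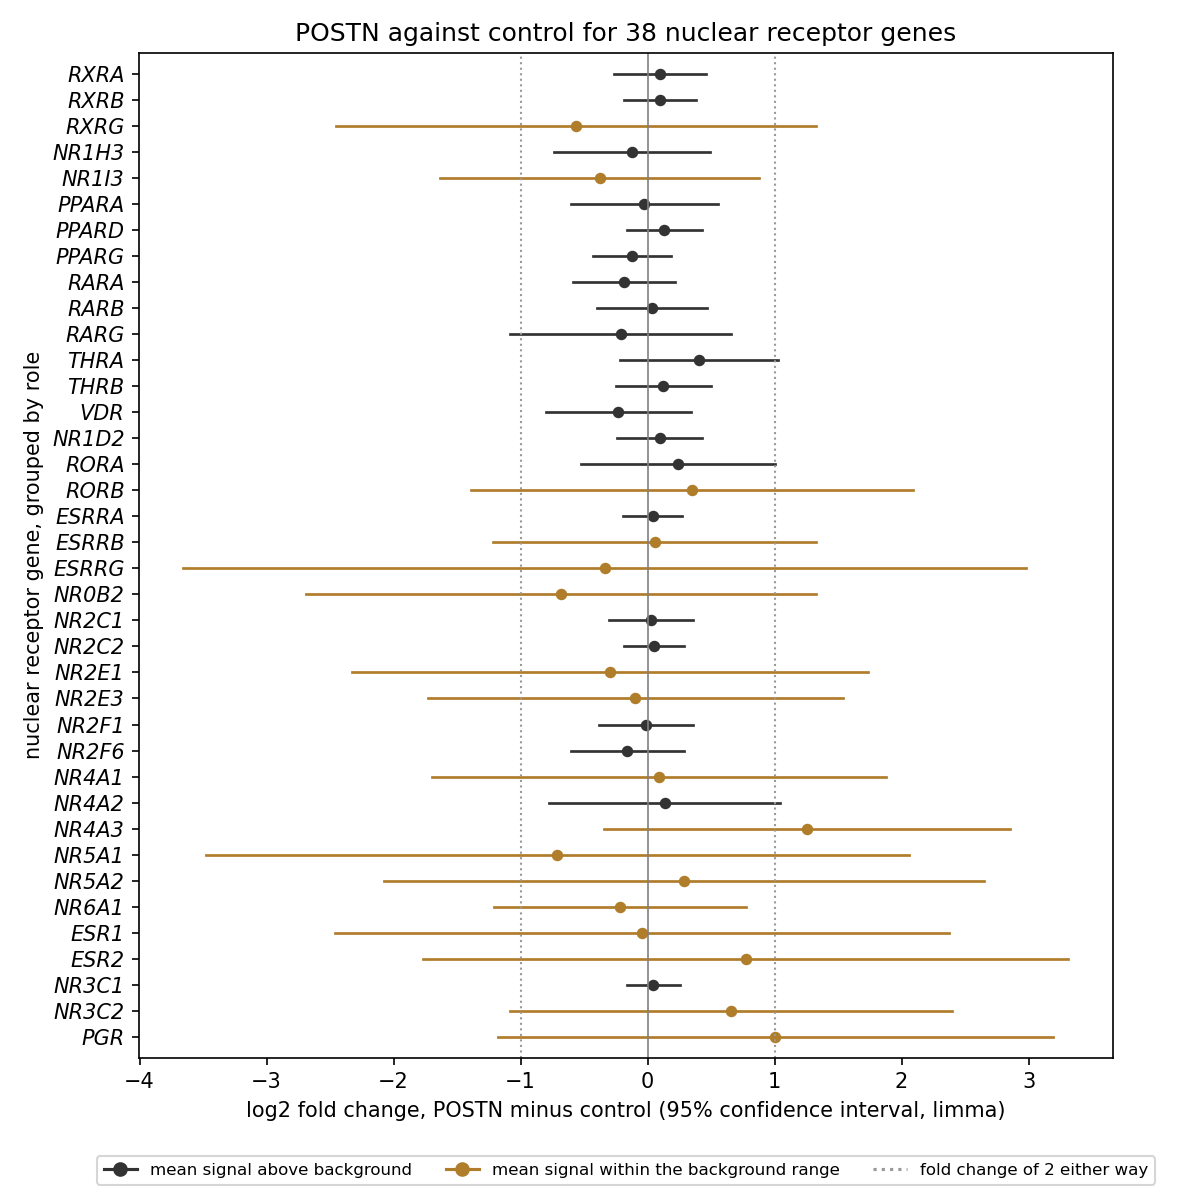
Log2 fold change, POSTN minus control, of the 38 nuclear receptor genes (y axis, grouped by role) with 95% confidence intervals from limma (x axis); dark for genes above background, brown for genes within the background range, dotted lines at a 2-fold change. All 38 intervals include 0, and the intervals of the dim genes reach beyond a 2-fold change.

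VDR, the receptor for the active form of vitamin D, was read by 204254_s_at at 8.23, 8.23 and 9.03 with POSTN, against 8.30, 8.98 and 8.89 in control cells. The groups overlapped, and POSTN arrays 1 and 2 lay below every control array. The log2 fold change was -0.23 (standard error 0.256, 95% interval -0.80 to 0.34). A second VDR probe set, 204255_s_at, gave 6.95, 8.58 and 8.52 with POSTN and 7.32, 8.22 and 8.21 in control cells, which gave 0.096 (standard error 0.42) for the log2 fold change. Here the lowest and the highest array were both POSTN arrays. The dimmer 204253_s_at read 4.29, 6.60 and 7.04 with POSTN and 6.47, 6.69 and 6.82 in control cells, and the fourth, 213692_s_at, had a mean within the background range. The 3 VDR probe sets above background thus differed in sign, and each had an adjusted p of 0.9999.

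RXRA, the main RXR of liver cells, gave 11.34, 10.69 and 10.70 with POSTN, against 10.85, 10.75 and 10.83 in control cells. Only POSTN array 1 stood above the controls, and the other two POSTN arrays lay below all of them (log2 fold change 0.10, standard error 0.163). RXRB, which is expressed in most tissues, gave 9.52, 9.63 and 9.82 with POSTN, against 9.50, 9.49 and 9.69 in control cells. Its groups overlapped as well (log2 fold change 0.098, standard error 0.129). RXRG, an RXR of muscle and brain, was within the background range on all 6 arrays, at 2.71, 5.06 and 5.07 with POSTN and 4.65, 5.67 and 4.21 in control cells. Its log2 fold change of -0.57 has a 95% interval from -2.46 to 1.33.

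Among the RXR partners above background, 4 were higher and 6 lower with POSTN in sign on the brightest probe set, and none passed the test. The sign depended on the probe set for several of them. PPARD gave 0.13 on 37152_at and -0.24 on 242218_at, and RARA gave -0.19 on 203749_s_at and 0.19 on 216300_x_at. THRA, a thyroid hormone receptor, was the 1 gene of the 38 whose groups did not overlap, beside 7.13% of all genes and 4.98% of genes above background. The probe set 1316_at read 6.98, 7.01 and 6.77 with POSTN, against 6.47, 6.53 and 6.55 in control cells. The log2 fold change was 0.41 (standard error 0.280, adjusted p 0.9999 by limma), with an unadjusted p of 0.0067 in the methods' t-test, which does not share the spread over genes. An exact two-sided permutation test gave p = 0.10, the smallest that 3 against 3 arrays allow. On the other THRA probe set above background, 35846_at, the log2 fold change was 0.23 and the groups overlapped, at 7.07, 6.62 and 6.43 with POSTN and 6.67, 6.24 and 6.50 in control cells. THRA lies on the opposite strand to the clock receptor NR1D1, with overlapping ends, and 3 probe sets list both genes and are not named here. THRB, the second thyroid hormone receptor, gave 0.12 (standard error 0.168) for its log2 fold change. The retinoic acid receptors gave log2 fold changes of -0.19 (RARA, standard error 0.180), 0.038 (RARB, standard error 0.194) and -0.21 (RARG, standard error 0.39). RARG had the highest single value on control array 3 (7.61, against 6.25 to 7.02 on the POSTN arrays).

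The peroxisome proliferator-activated receptors sense fatty acids. PPARA, which drives fatty acid oxidation in hepatocytes, gave 8.65, 8.26 and 8.28 with POSTN and 8.93, 7.84 and 8.49 in control cells (log2 fold change -0.025, standard error 0.261). For PPARD the log2 fold change was 0.13 (standard error 0.133). PPARG, which drives adipocyte formation and lipid storage, gave 11.20, 10.86 and 10.85 with POSTN and 11.34, 11.02 and 10.92 in control cells. Within each replicate number the POSTN array was the lower one, by a mean of 0.12 log2 units (log2 fold change -0.12, standard error 0.138). NR1H3 (LXR alpha), the oxysterol receptor of cholesterol efflux and fatty acid synthesis, gave 9.02, 8.25 and 8.21 with POSTN and 9.15, 8.38 and 8.32 in control cells. Here too the POSTN array was the lower one of each number (log2 fold change -0.12, standard error 0.275). In RXRB, PPARD, THRA and RORA, also above background, the POSTN array was instead the higher one of each number. The share of all genes with the same sign in every number was not counted. With the replicate number in the fit, the unadjusted p was 0.087 for PPARG and 0.36 for NR1H3 (adjusted p of 0.966 and 0.972 by limma). In both genes the array number 1 read higher than numbers 2 and 3 in either group, and the promoters of these 2 genes are shown since both move with the number and each holds the half-site of the family. The sequences are RefSeq windows on GRCh38.p14 from 250 bases before to 50 bases after a start site, on the plus strand, at chr11:47248050-47248349 for NR1H3 and chr3:12287118-12287417 for PPARG, with the half-site AGGTCA, read on either strand, in capitals.
NR1H3: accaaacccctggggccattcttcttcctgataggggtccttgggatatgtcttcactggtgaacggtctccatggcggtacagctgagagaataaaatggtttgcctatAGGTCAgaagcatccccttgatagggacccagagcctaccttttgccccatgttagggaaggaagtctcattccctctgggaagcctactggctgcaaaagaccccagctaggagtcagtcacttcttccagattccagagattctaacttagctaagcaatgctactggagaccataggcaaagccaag
PPARG: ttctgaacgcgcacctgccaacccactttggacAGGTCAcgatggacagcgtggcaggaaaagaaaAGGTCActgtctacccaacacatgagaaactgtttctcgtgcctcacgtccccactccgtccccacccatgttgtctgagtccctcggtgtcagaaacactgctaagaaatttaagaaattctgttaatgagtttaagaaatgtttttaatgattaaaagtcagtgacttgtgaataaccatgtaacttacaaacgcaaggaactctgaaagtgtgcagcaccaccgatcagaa

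The half-site was found in 1 of 4 NR1H3 windows and in 3 of 6 PPARG windows, and in 0 of 1 window of NR2C1. The PPARG windows at chr3:12288810-12289109 and chr3:12288820-12289119 overlap and hold the same site, which is thus counted in both. The half-site was present in 13.8% of all 35116 windows, and in 16 of the 94 windows (17.0%) that matched 40 of the 44 genes. No other motif was searched, and a match is a description of the letters only.

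The clock receptors repress or activate BMAL1 and other clock genes. NR1D2 (REV-ERB beta) gave 0.096 (standard error 0.150) for its log2 fold change and RORA gave 0.24 (standard error 0.34). RORA overlapped between the groups, at 6.79, 6.99 and 6.41 with POSTN and 6.64, 6.80 and 6.02 in control cells, while the third clock receptor measured, RORB, was within the background range on all 6 arrays.

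Of the orphan and estrogen-related receptors above background, 4 were higher and 2 lower with POSTN in sign on the brightest probe set. NR2C1 and NR2C2 (TR2 and TR4), which bind direct repeats of the half-site, had log2 fold changes of 0.028 (standard error 0.149) and 0.051 (standard error 0.106). NR2F1 (COUP-TFI) and NR2F6 (EAR2), mostly repressors, had log2 fold changes of -0.014 (standard error 0.166) and -0.16 (standard error 0.199). The dimmer NR2F6 probe set 209261_s_at gave 0.53 (standard error 0.43). ESRRA is a driver of mitochondrial genes with PGC-1 coactivators. Its brightest probe set, 1487_at, varied little between arrays. It read 9.95, 9.94 and 10.05 with POSTN and 9.89, 9.96 and 9.98 in control cells (log2 fold change 0.040, standard error 0.105). The dimmer ESRRA probe set 203193_at varied more, at 6.91, 7.11 and 8.05 with POSTN and 7.64, 7.98 and 7.52 in control cells. Its log2 fold change had the other sign (-0.36, standard error 0.31). NR4A2, an immediate early factor, gave 6.92, 5.96 and 6.28 with POSTN and 6.59, 6.44 and 5.73 in control cells, so that its groups overlapped (log2 fold change 0.13, standard error 0.41). Its relative NR4A3 had the largest log2 fold change of the 38, 1.26 (standard error 0.72), within the background range. NR4A3 read 5.65, 5.20 and 5.40 with POSTN and 3.06, 5.24 and 4.18 in control cells, and it met the methods' thresholds only without control array 2 (log2 fold change 1.80).

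NR3C1, the glucocorticoid receptor, is the receptor of cortisol and was read by 5 probe sets above background. Its brightest, 216321_s_at, gave 11.23, 11.22 and 11.38 with POSTN, against 11.25, 11.15 and 11.29 in control cells. The groups overlapped, and the log2 fold change of 0.046 had the smallest standard error of the members above background, 0.093 (95% interval -0.16 to 0.25). The estrogen receptors ESR1 and ESR2 are the receptors of estradiol. ESR1 (215551_at) read 2.08, 6.33 and 6.55 with POSTN and 5.50, 4.69 and 4.89 in control cells, with a log2 fold change of -0.044 that was 1.41 without POSTN array 1, where it met the methods' thresholds. Of all 125 probe sets, 1 met those thresholds on all arrays, the ESR2 probe set 1569554_at. It read 2.73, 2.12 and 2.66 with POSTN and 4.15, 4.84 and 5.82 in control cells (log2 fold change -2.43, unadjusted p 0.014 and adjusted p 0.9999 by limma), all values below the background level. The brightest ESR2 probe set, also within the background range, had a log2 fold change of 0.77. ESR2 and NR4A3 are named after their values had been seen.

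The arrays were then compared by replicate number, with the condition in the fit, since the labels number the arrays 1 to 3 in both groups and do not say what a number shares. The call is limma's F test over the 3 numbers, and the difference given is number 1 minus the mean of numbers 2 and 3. NR1H3, NR2F6, NR2C1 and PPARG passed an adjusted p under 0.05 (4 of 38, or 10.5%, beside 6.64% of all genes), all 4 above background and all higher on the arrays numbered 1. Among genes above background this was 4 of 21 (19.0%), beside 11.3% of all such genes in either direction and 6.05% of them higher in number 1. On the brightest probe sets, 15 of the 21 differences were above 0 and 6 below, with a median of 0.16, beside 0.010 over all genes above background. Numbers 2 and 3 differed in 0 of 38 genes by limma at an adjusted p under 0.05.

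NR1H3 read 9.02 (POSTN) and 9.15 (control) on the arrays numbered 1, against 8.25 and 8.21 (POSTN) and 8.38 and 8.32 (control) on numbers 2 and 3. Both arrays numbered 1 stood above the 4 others, with a difference of 0.79 (standard error 0.134, 1.73-fold, adjusted p 0.018 by limma's F test). NR2F6 read 10.79 (POSTN) and 10.76 (control) on the arrays numbered 1, against 9.99 and 10.21 (POSTN) and 10.41 and 10.29 (control) on the others, a difference of 0.55 (standard error 0.0997, adjusted p 0.025). The groups of numbers did not overlap, but the dimmer NR2F6 probe set 209261_s_at gave a difference of -0.39 within the POSTN arrays and 1.26 within the control arrays. NR2C1 read 11.003 (POSTN) and 10.98 (control) on number 1, against 10.62 and 10.61 (POSTN) and 10.53 and 10.64 (control) on the others, a difference of 0.39 (standard error 0.075, adjusted p 0.031). The other NR2C1 probe sets above background gave differences of -0.15, 0.22 and 0.31, none past the threshold, so the 4 probe sets of this gene differ in sign. PPARG read 11.20 (POSTN) and 11.34 (control) on number 1, against 10.86 and 10.85 (POSTN) and 11.02 and 10.92 (control) on the others, a difference of 0.36 (standard error 0.070, adjusted p 0.037). PPARG and NR1H3, whose promoter windows are given above, have 1 probe set each in the table, so no other probe set can be set beside them.

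These 4 calls rest on few degrees of freedom. Without POSTN array 1, 0 of the 4 passed (adjusted p 0.169 for NR1H3, 0.279 for NR2F6, 0.179 for NR2C1 and 0.178 for PPARG by limma), and without control array 1 only NR2F6 did (0.031, with 0.170 for NR1H3, 0.189 for NR2C1 and 0.220 for PPARG). PPARG was also lost without POSTN array 3 (0.060) or control array 3 (0.102). With a prior variance that does not follow the signal, 0 members and 0 of all probe sets passed. With log2(signal + 50), 3 of the 4 were lost and NR1H3 passed, and PPARG was lost without the condition in the fit (0.062). Over the settings run, the differences were 0.70 to 0.81 for NR1H3, 0.34 to 0.38 for PPARG, 0.19 to 0.42 for NR2C1 and 0.18 to 0.69 for NR2F6, where the lowest values of NR2C1 and NR2F6 came from the mean of a gene's probe sets.

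**Figure D3:**
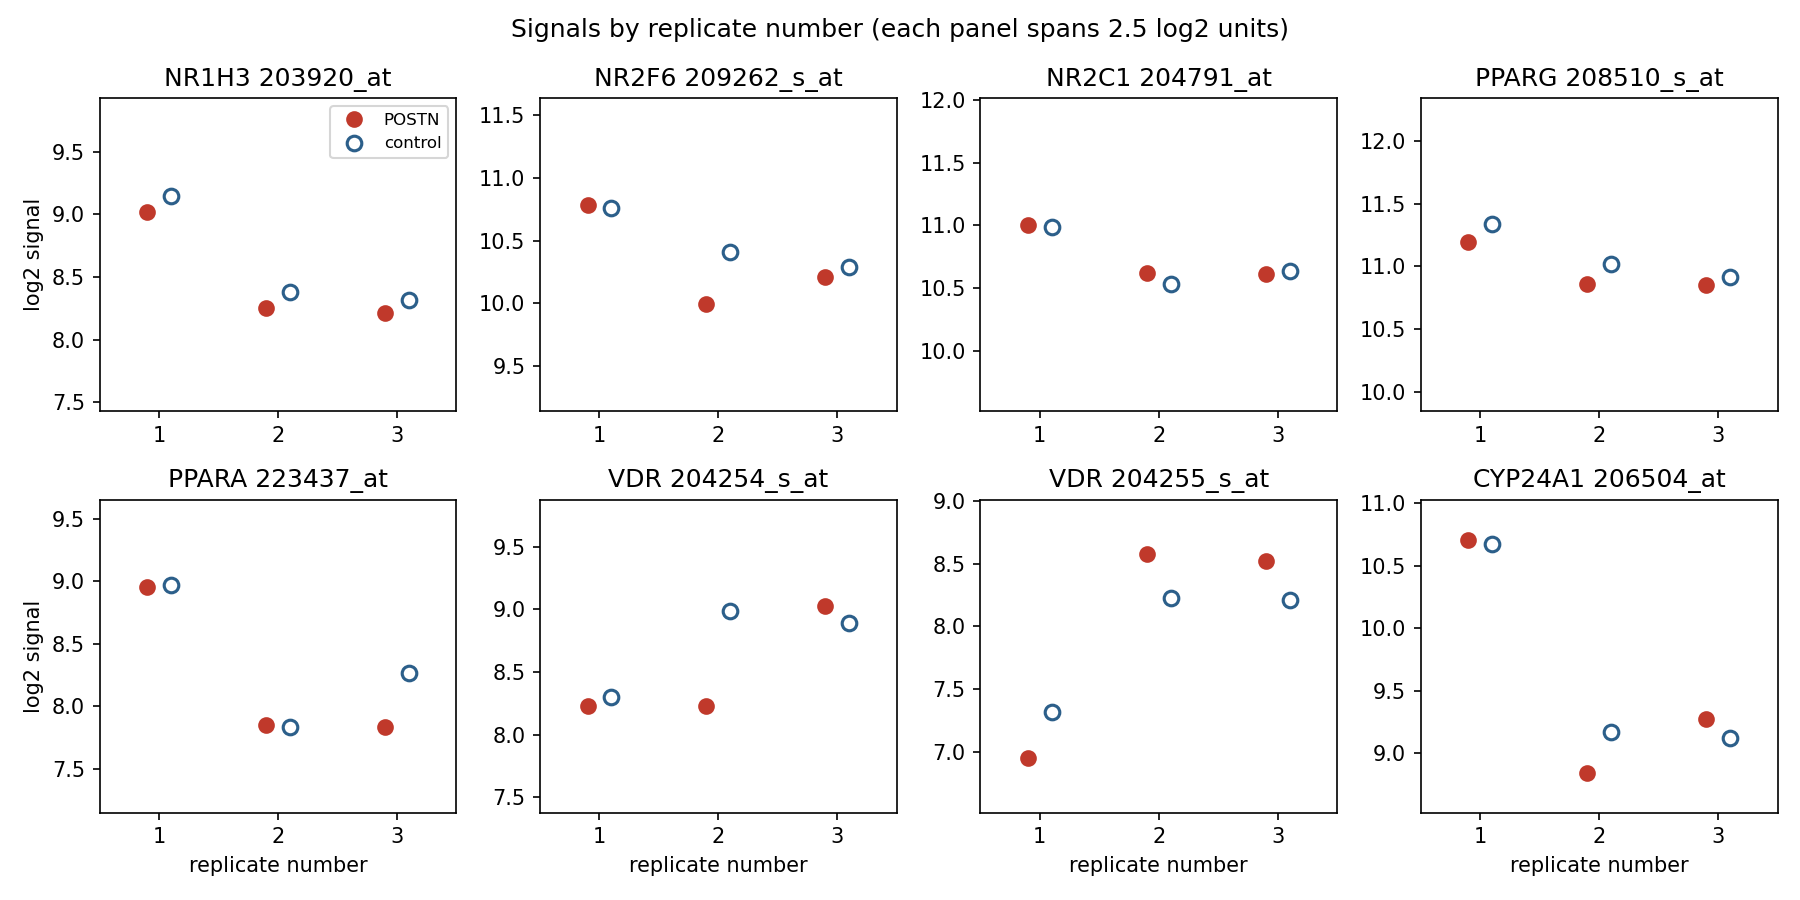
Log2 signal (y axis) by replicate number (x axis) for 7 nuclear receptor probe sets and for the VDR target CYP24A1, filled red for POSTN and open blue for control, 1 point per array. NR1H3, NR2F6, NR2C1, PPARG, PPARA 223437_at and CYP24A1 are highest on the arrays numbered 1, and VDR 204255_s_at is lowest there.

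On the level of probe sets, 6 of the 125 passed the F test, beside 4.08% of all probe sets. The other two, chosen here after their values had been seen, belong to PPARA and VDR. PPARA 223437_at read 8.95 (POSTN) and 8.97 (control) on the arrays numbered 1, against 7.85 and 7.84 (POSTN) and 7.84 and 8.26 (control) on the others, a difference of 1.01 (adjusted p 0.012 by limma). All 5 PPARA probe sets above background had a difference above 0, from 0.32 to 1.01, among them 0.82 on 223438_s_at (adjusted p 0.063) and 0.57 on the brightest, 226978_at (adjusted p 0.152). PPARA 223437_at was lost without POSTN array 1 (adjusted p 0.164) or control array 1 (0.073). VDR 204255_s_at was the one of the 6 that was lower on the arrays numbered 1, at 6.95 (POSTN) and 7.32 (control), against 8.58 and 8.52 (POSTN) and 8.22 and 8.21 (control) on the others. The difference was -1.25 (standard error 0.199, adjusted p 0.013), and beside it 5.26% of genes above background were called and lower in number 1. Without POSTN array 1 it was -0.90 (adjusted p 0.165), and with log2(signal + 50) it was -1.01 (adjusted p 0.053), so that the call was lost in both. The 2 other VDR probe sets above background had differences of -0.52 (204254_s_at, adjusted p 0.206) and -1.41 (204253_s_at, adjusted p 0.314), so that all 3 had the same sign. For 204254_s_at the arrays did not separate by number, since POSTN array 2 read as low as the arrays numbered 1. Without POSTN array 2 its difference was -0.71 (adjusted p 0.0065), and without control array 2 it was -0.32 (adjusted p 0.012), where the F test also reads the gap between numbers 2 and 3.

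**Figure D4:**
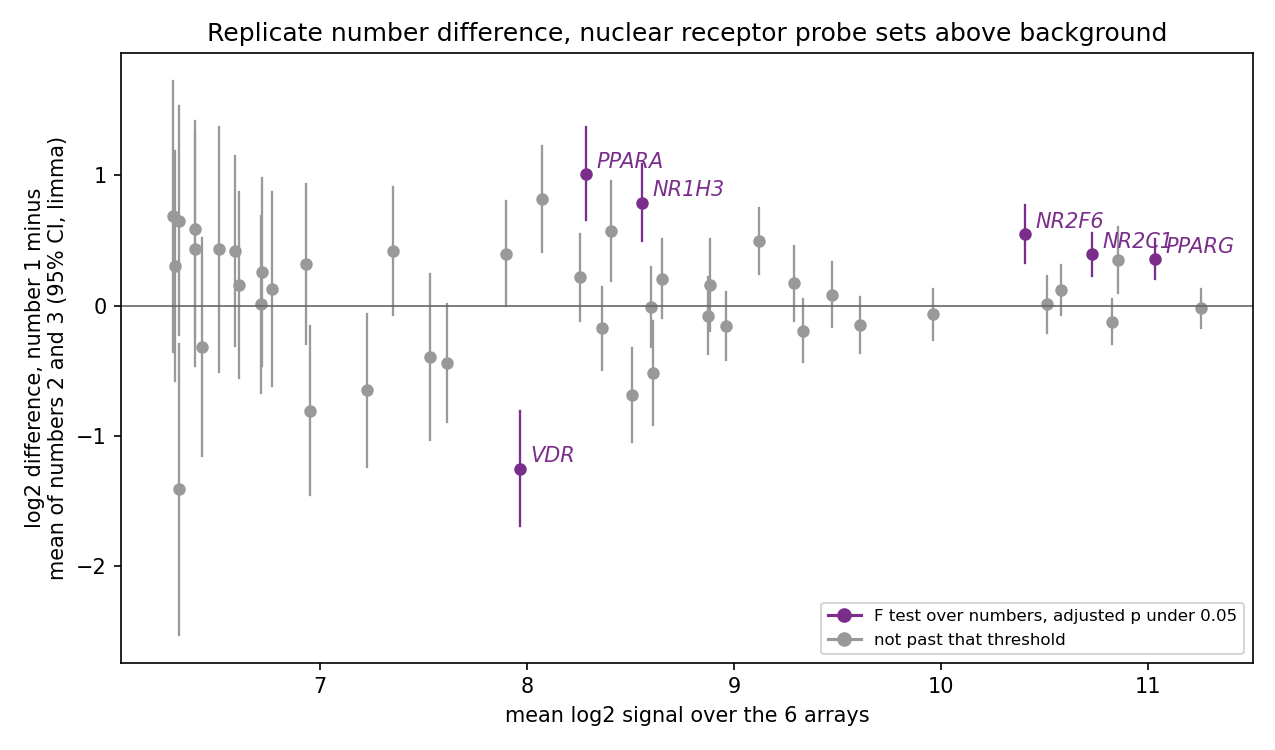
Difference on the log2 scale, number 1 minus the mean of numbers 2 and 3 (y axis, with 95% confidence intervals from limma), against the mean log2 signal over the 6 arrays (x axis), for the nuclear receptor probe sets above background. The 6 probe sets past an adjusted p under 0.05 in the F test are purple and named, 5 of them above 0 and VDR below.

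RARB, a receptor that retinoic acid itself induces, read 9.48 (POSTN) and 9.42 (control) on the arrays numbered 1, against 8.90 and 9.04 (POSTN) and 9.01 and 8.88 (control) on the others. The numbers did not overlap, and the difference of 0.50 (standard error 0.116) missed the threshold with an adjusted p of 0.086 by limma's F test, while the contrast of number 1 alone had one of 0.029. Called by that contrast, the members were 5, namely NR1H3, NR2F6, NR2C1, PPARG and RARB. RXRA stood apart on only 1 of the arrays numbered 1, by 0.65 within the POSTN arrays and 0.060 within the control arrays. The difference between those values had an adjusted p of 0.99 by limma's interaction term. On their brightest probe sets, NR3C1, RXRB and ESRRA differed little with the number, by -0.019, -0.15 and -0.065. The other NR3C1 probe sets above background gave differences from -0.65 (232431_at) to 0.085 (201866_s_at), and ESRRA 203193_at gave -0.39. None of these passed the F test.

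Markers moved with the number too. Of the hepatocyte and hepatoma markers, 4 of 10 were called by the F test and all 4 were higher in number 1, namely ALB, SERPINA1, TF and FGB, by 1.85 (ALB), 2.65 (FGB) and 2.83 (TF) on the log2 scale. SERPINA1 was below background on all 4 arrays numbered 2 and 3, so its difference has no firm size, and ALB was below it on 2 of them. TF, the iron carrier of plasma, read 10.32 (POSTN) and 10.22 (control) on the arrays numbered 1, against 7.35 to 7.47 on the others. The summed linear signal of that list was 47441 and 51404 on the arrays numbered 1 and 49733 to 54626 on the others, so that the sum, most of it keratin, overlapped. Of the stellate cell markers 1 of 10 was called, DCN, lower in number 1 by 1.002, with summed signals of 2967 and 3454 on number 1 against 3567 to 3885 on the others. PECAM1, 1 of 4 endothelial markers, was higher by 0.51, with sums of 1411 and 1667 on number 1 against 1007 to 1269 on the others. Of the 4 leukocyte markers, 0 were called by the F test, with sums of 95.1 and 156 on number 1 against 154 to 191 on the others. The part of these markers in the receptor differences was not tested.

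The genes that the receptors control were read from 10 lists, which were chosen with earlier results of these data known. With POSTN, 0 genes of any list passed an adjusted p under 0.05 by limma. CAMP, an antimicrobial peptide gene induced by VDR, had a log2 fold change of 2.24, and CRY2, a clock repressor, one of -1.71. These were the only 2 list genes past the methods' thresholds with limma's unadjusted p (0.028 and 0.047). This is 1 of 20 genes of the vitamin D list and 1 of 15 clock partners, beside 2.07% of all genes. Neither CAMP nor CRY2 passed with the methods' t-test (p of 0.055 and 0.067), and CRY2 was lost with the replicate number as a block in limma (unadjusted p 0.064). Both had mean signals within the background range and are named after their values had been seen. CYP24A1, the enzyme that degrades active vitamin D and the standard readout of VDR activity, gave 10.71, 8.85 and 9.28 with POSTN, against 10.68, 9.17 and 9.13 in control cells. Its log2 fold change was -0.047, and its groups overlapped.

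By replicate number, 5 of 20 genes of vitamin D metabolism and VDR targets (25%) passed the F test, beside the 6.64% of all genes given earlier. Of these 5, 4 were higher and 1 lower in number 1. All 5 were among the 12 list genes above background (41.7%, beside 11.3% of all such genes). The list was chosen with earlier results of these data known, so these shares describe it and are no independent test of it. CYP24A1 read 10.71 (POSTN) and 10.68 (control) on the arrays numbered 1, against 8.85 to 9.28 on the others, a difference of 1.59 (standard error 0.115, adjusted p 8.2e-05 by limma). IGFBP3, a binding protein of insulin-like growth factors, read 12.10 (POSTN) and 12.17 (control) on number 1, against 9.67 and 9.96 (POSTN) and 9.96 and 10.04 (control) on the others, a difference of 2.23. CDKN1A, the cell cycle inhibitor p21, went the other way with a difference of -1.04, at 9.44 (POSTN) and 8.998 (control) on number 1 against 10.24 to 10.29 on the others. DHCR7 and PDIA3 were higher in number 1 by 0.65 and 0.49. CYP24A1, IGFBP3 and CDKN1A passed without any 1 of the 6 arrays. DHCR7 was lost without control array 1 (adjusted p 0.311), and PDIA3 without either array numbered 1 (0.058 and 0.083). VDR itself was lower on the arrays numbered 1 on its probe set 204255_s_at, as given above, and whether these values are linked was not tested.

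Of the retinoid metabolism genes and RAR targets, 7 of 18 passed, 5 higher and 2 lower in number 1. The retinol dehydrogenase RDH10 (0.88), the retinal reductase DHRS3 (0.78) and the chemerin gene RARRES2 (0.77) were higher, and the transglutaminase TGM2 was lower (-0.72). CYP26B1, which degrades retinoic acid, read 8.26 (POSTN) and 7.93 (control) on the arrays numbered 1, against 2.24 and 5.19 (POSTN) and 1.40 and 2.04 (control) on the others. The signals on numbers 2 and 3 lay below background, so its difference of 5.38 has no firm size. Of the LXR and FXR targets, 3 of 20 passed. The bile acid exporter subunit SLC51B (2.22) and the desaturase SCD (0.86) were higher in number 1, and the cholesterol exporter ABCA1, a target of NR1H3, was lower (-1.55, at 8.54 with POSTN and 7.99 in control cells on number 1 against 9.53 to 10.19 on the others). Among PPAR targets, 3 of 18 passed, with ANGPTL4 (0.77) and VNN1 (0.44) higher and the fatty acid receptor CD36 lower (-0.97).

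Of the glucocorticoid receptor targets, 5 of 15 passed, with GLUL (0.41), ERRFI1 (0.33) and TSC22D3 (0.42) higher and SGK1 (-0.70) and the metallothionein MT2A (-0.91) lower in number 1. Of the estrogen receptor and ERR targets, 6 of 16 passed, 5 higher and 1 lower. CA12, a carbonic anhydrase, was higher by 0.92, PDZK1 by 1.58 and GATA3 by 0.86, STC2 was lower by 0.90, and GREB1 (3.41) lay within the background range. Of the PXR and CAR targets, 2 of 14 passed, the glutathione transferase GSTA1 (1.41) and the cystine transporter SLC7A11 (-0.44). Of the clock partners, 2 of 15 passed, the repressors BHLHE40 (0.76) and BHLHE41 (-1.15), the second of which turned to 0.59 (adjusted p 0.907) without _x_at and _s_at probe sets, where another probe set is read. The coactivators and corepressors had 1 of 25, GPS2 (0.49), and the chaperones of steroid receptors 2 of 11, HSP90AA1 (-0.27) and HSP90AB1 (-0.30), both lost under quantile normalization (adjusted p 0.177 and 0.134). Over all measured genes of a list, the share called ran from 4% (coactivators and corepressors) to 38.9% (retinoid genes), beside 6.64% of all genes. Nearest above that were the clock partners (13.3%) and the PXR and CAR targets (14.3%). Among list genes above background, the share ran from 4.35% (coactivators and corepressors) to 46.2% (retinoid genes), beside 11.3% of all such genes. Nearest above that were the clock partners (15.4%), then the PXR and CAR targets and the chaperones (18.2% each). Calls fell in both directions in 8 of the 10 lists. Of the 33 called list genes that were followed with 1 array left out at a time, 18 passed in all 6 settings and 15 did not, and all 15 were lost without an array numbered 1 (adjusted p 0.053 to 0.346 where lost, by limma). HSP90AA1 and HSP90AB1 were also lost without POSTN array 3 or control array 3. Leaving out 1 array brought the difference of GPS2 to as little as 0.30 and that of HSP90AB1 to -0.18. The 15 genes were ANGPTL4, CYP26B1, DHCR7, ERRFI1, GATA3, GLUL, GPS2, GREB1, HSP90AA1, HSP90AB1, MT2A, PDIA3, SGK1, TSC22D3 and VNN1.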

How the data were processed

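RNA of 6 samples was hybridized by the authors to 1 Human Genome U133 Plus 2.0 array each, scanned, and turned into signals by MAS 5.0, with affy in R named beside it (affy version not given in the sources used here). All deposited values are log2 signals, with a trimmed linear mean of 500.0 on every array. MAS 5.0 subtracts a local background, so dim probe sets vary widely on this scale. Of 54675 rows, 62 Affymetrix controls were left out. Of the rest, 41091 have 1 gene symbol in the array's annotation, 1801 several and 11721 none, and probe sets of these last kinds were not used here. Groups and replicate numbers came from the sample titles.

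POSTN was compared with control in limma 3.58.1 (R 4.3.3; lmFit and eBayes with a trended prior variance), with Benjamini-Hochberg adjustment over 54613 probe sets. Replicate numbers were compared by an F test with the condition in the fit. The methods name a t-test, which was taken as unpaired and run as an alternative. The scripts were tested on simulated data.

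The members and gene lists were chosen with earlier results of these data known. Named were VDR, the RXR genes, every member above the background level or past a threshold, and per list at most the 5 called genes with the largest difference, with CYP24A1. Other exceptions are marked in the text. Same-numbered arrays deviated together (r = 0.0882, 0.0340 and 0.0252 over all probe sets, and 0.529, 0.235 and 0.239 over the 25320 above background). Above background, numbers 2 and 3 also deviated with each other, at r = 0.150 (POSTN 2, control 3) and 0.201 (POSTN 3, control 2). The main comparison of POSTN with control had no block, and same-numbered arrays entered that test as pairs only with the replicate block. The deviations were taken from the mean of each group, so a shift shared by the arrays numbered 1 alone also makes numbers 2 and 3 correlate. These values thus do not show a pairing within number 2 or within number 3, and the labels state no pairing.

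The alternatives were quantile normalization, centring on the median, log2(signal + 50), a filter on dim probe sets, no _x_at and _s_at probe sets, the mean of a gene's probe sets, no trend, the replicate block, the t-test, the contrast of number 1 in place of the F test, the F test without the condition, other background percentiles (90 and 99), and leaving out each array or both arrays numbered 1. For 1 probe set each of VDR (204255_s_at) and PPARA (223437_at), the settings of the F test were run after their values had been seen. Left out there were the mean of a gene's probe sets and, for VDR 204255_s_at, the setting without _x_at and _s_at probe sets. Promoter windows came from RefSeq (GRCh38.p14).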

Additional observations from a re-analysis of the deposited data

How the results depend on the processing

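The count of 0 nuclear receptors at an adjusted p under 0.05 between POSTN and control by limma stayed 0 under every alternative run, where the lowest adjusted p of a member above background or of RXRG was 0.966. The replicate block left the count at 0 as well, at an unadjusted p under 0.05 too, and the pairing ended 1 call of a named gene at the methods' thresholds, that of CRY2 (unadjusted p 0.064), and no other. The methods' t-test gave 0 after adjustment and 1 of 38 (THRA) at an unadjusted p under 0.05. The count at the methods' thresholds was 1 without both arrays numbered 1 (ESR1, log2 fold change 1.65) and 0 to 1 with single arrays left out. The count of members that differed by replicate number was 1 with log2(signal + 50) (NR1H3) and 1 with the mean of a gene's probe sets (NR1H3). It was 0 without the trend, 5 by the contrast of number 1 (RARB added) and 3 without the condition (PPARG lost, adjusted p 0.062 by limma). Without _x_at and _s_at probe sets it was 2 of 31 measured members (NR1H3 and NR2C1). PPARG and NR2F6 are read only by _s_at probe sets and were not measured in that setting. The VDR probe sets named above are all _s_at as well. Of the 33 called list genes followed, 33 were lost without the trend, 18 with the mean of a gene's probe sets, 9 with log2(signal + 50) and 4 after quantile normalization. The count of members that differed by number ranged from 0 (without POSTN array 1) to 7 (without POSTN array 2 or control array 2) with single arrays left out. The number of members above background was 13 with the mean of a gene's probe sets. It was 14 of the 31 members measured without _x_at and _s_at probe sets, and 20 to 22 elsewhere. The median log2 fold change of the members was -0.012 after centring on the median and -0.016 to 0.092 with single arrays left out. The difference of BHLHE41 by number turned to 0.59 without _x_at and _s_at probe sets, which reads another probe set of the gene. The cause of the other moves was not tested. With 3 arrays a group, the standard error of the POSTN effect had a median of 0.168 for members above background and 0.849 for dim members, so the dim receptors bear no reading of absence of change. The number comparison leaves few residual degrees of freedom, and its calls depend on the spread shared over genes.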
